A study of Arabidopsis thaliana with 6 samples.

Results

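The GSTU1 to GSTU7 genes are 7 tau-class glutathione transferase genes that stand one after another on chromosome 2 of Arabidopsis thaliana. They were taken by locus, AT2G29490 (GSTU1), AT2G29480 (GSTU2), AT2G29470 (GSTU3), AT2G29460 (GSTU4), AT2G29450 (GSTU5), AT2G29440 (GSTU6) and AT2G29420 (GSTU7), and are 7 of the 32833 genes in the count table. The set was proposed with the IAA against mock results of these same libraries in view, so its IAA against mock values are given as a description. No p-value is given for its members, and calls made in the fit over all genes are counted without reading a result from them.

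Transcripts were counted by RNA sequencing of roots from wild-type seedlings of Col-0, the standard laboratory accession, taken 3 days after germination. Whole seedlings had spent 1 h in liquid half-strength Murashige and Skoog medium, either plain (mock) or containing the natural auxin IAA (indole-3-acetic acid) at 1 µM. Each group had 3 libraries, and each library was made from a pool of about 100 roots, so the values are means over whole roots and no single plant or cell type was resolved. The labels do not say whether replicates were grown and treated on separate occasions, so p-values measure only the spread between these samples. In such bulk samples, fewer cells of a type and less RNA per cell cannot be told apart.

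Glutathione transferases join the tripeptide glutathione to reactive or foreign compounds, and the conjugates are then moved into the vacuole by ABCC-type transporters and broken down there. The tau class is found in plants, is known for the detoxification of herbicides, and holds many genes that lie in tandem arrays made by repeated local duplication. Several plant glutathione transferase genes were first described as genes induced by auxin, and many of them are also induced by salicylic acid, wounding or xenobiotics through promoter elements with the core TGACG, which bind TGA-type bZIP factors. GSTU5 is among the Arabidopsis genes earlier described as auxin-inducible.

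The library totals were even, from 20808439 to 20984444 counts. Levels are given as CPM, the counts per 1e+06 after scaling of the library totals by TMM factors. All 7 root markers (PIN2, PLT1, SHR, SCR, COBL9, EXPA7 and WOX5) were above 0 in every library, with summed levels from 488 to 510 CPM in mock and from 624 to 695 CPM in IAA. The part of this difference in the values below was not tested. The summed level of 8 shoot photosynthesis genes differed between libraries of one group. It was 1295, 127 and 1794 CPM in mock 1 to 3 and 101, 711 and 138 CPM in IAA 1 to 3, with all 8 genes above 0 in every library.

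The array covers 14603 bases, from 12617936 to 12632538 on chromosome 2 in the TAIR10.1 assembly, and all 7 genes lie on the minus strand. In the direction of transcription the order is GSTU1 (12631341 to 12632538), GSTU2 (12630198 to 12631321), GSTU3 (12628422 to 12629640), GSTU4 (12626478 to 12627891), GSTU5 (12624403 to 12625790), GSTU6 (12619630 to 12621231) and GSTU7 (12617936 to 12618899). Each gene has 2 exons and a coding length between 672 and 684 bases. The gaps between neighbours range from 19 bases, between GSTU2 and GSTU1, to 3171 bases, between GSTU6 and GSTU5. GSTU2 starts so close to GSTU1 that the 250 bases upstream of its start lie within the last exon of GSTU1 and the gap.

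**Figure D1:**
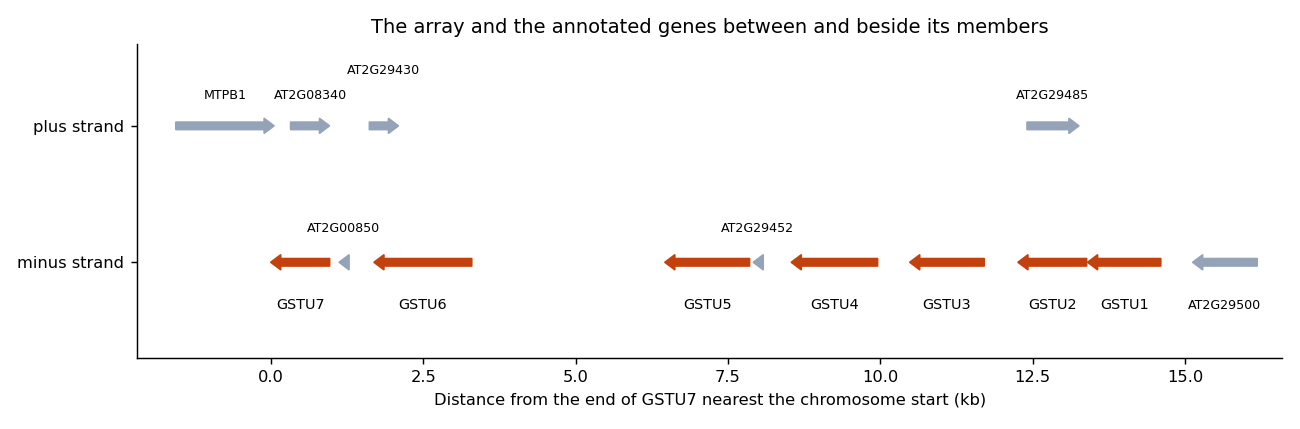
Map of the array, drawn to scale, with distance in kb from the end of GSTU7 nearest the chromosome start on the horizontal axis and strand on the vertical axis. Orange arrows are the 7 array genes, all on the minus strand, and grey arrows are the other annotated genes between or beside them; AT2G29485 lies opposite GSTU2, AT2G29430 opposite the end of GSTU6, and AT2G08340 opposite GSTU7.

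The 7 copies are related but distinct in sequence. Identity between coding sequences, over the aligned bases of each pair, ranged from 64.1% for GSTU3 and GSTU7 to 85.9% for GSTU1 and GSTU2, where 580 of 675 bases were the same. GSTU1, GSTU2 and GSTU4 resembled each other closely, at 83.9% to 85.9%, and so did GSTU5 and GSTU6, at 83.5%, whereas GSTU7 shared between 64.1% and 68.9% with the other copies. A stretch of 60 coding bases is shown to let the copies be compared; it is the ungapped stretch of that length with the most bases shared by all copies, and capitals mark the 37 positions at which all 7 genes have the same base.
GSTU1 (coding bases 215 to 274): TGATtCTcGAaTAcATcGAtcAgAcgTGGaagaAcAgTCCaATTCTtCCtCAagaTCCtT
GSTU2 (coding bases 215 to 274): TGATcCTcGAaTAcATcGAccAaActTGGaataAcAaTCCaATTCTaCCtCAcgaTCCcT
GSTU3 (coding bases 218 to 277): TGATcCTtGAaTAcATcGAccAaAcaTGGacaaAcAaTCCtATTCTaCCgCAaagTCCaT
GSTU4 (coding bases 215 to 274): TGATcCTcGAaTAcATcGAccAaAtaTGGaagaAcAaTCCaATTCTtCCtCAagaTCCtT
GSTU5 (coding bases 212 to 271): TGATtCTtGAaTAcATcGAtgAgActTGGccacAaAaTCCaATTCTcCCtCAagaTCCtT
GSTU6 (coding bases 212 to 271): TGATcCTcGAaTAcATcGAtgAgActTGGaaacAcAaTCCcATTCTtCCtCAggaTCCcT
GSTU7 (coding bases 221 to 280): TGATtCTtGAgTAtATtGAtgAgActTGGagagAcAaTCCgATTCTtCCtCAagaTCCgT
In this stretch GSTU4 differed from GSTU1 at 6 bases, GSTU2 and GSTU6 at 9 each, GSTU5 at 10, GSTU7 at 12 and GSTU3 at 14. The longest run of identical coding bases between any 2 of the 7 genes was 42 bases, in GSTU2 and GSTU4. No exonic window of 100 bases, the read length given in the labels, from any of the 7 genes was found elsewhere in the genome, and the same held for windows of 50 bases.

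The 250 bases before the start are printed for 4 of the genes because their sites differ in number. GSTU1 and GSTU7 hold more than 1 TGACG, GSTU6 holds 1, and GSTU4 holds none. Each is written 5′ to 3′ along the gene from RefSeq's TAIR10.1 assembly, with TGACG sites on either strand in capitals.
GSTU1 (chr2:12632539-12632788, minus strand): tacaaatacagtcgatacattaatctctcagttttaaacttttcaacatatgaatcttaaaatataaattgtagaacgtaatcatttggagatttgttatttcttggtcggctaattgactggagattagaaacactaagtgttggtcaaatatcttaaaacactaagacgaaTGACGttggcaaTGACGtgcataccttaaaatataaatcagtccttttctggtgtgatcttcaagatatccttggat
GSTU7 (chr2:12618900-12619149, minus strand): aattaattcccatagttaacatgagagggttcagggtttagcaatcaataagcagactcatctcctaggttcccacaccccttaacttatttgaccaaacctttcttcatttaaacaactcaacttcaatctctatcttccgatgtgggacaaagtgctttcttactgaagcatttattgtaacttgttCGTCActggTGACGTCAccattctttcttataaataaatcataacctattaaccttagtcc
GSTU6 (chr2:12621232-12621481, minus strand): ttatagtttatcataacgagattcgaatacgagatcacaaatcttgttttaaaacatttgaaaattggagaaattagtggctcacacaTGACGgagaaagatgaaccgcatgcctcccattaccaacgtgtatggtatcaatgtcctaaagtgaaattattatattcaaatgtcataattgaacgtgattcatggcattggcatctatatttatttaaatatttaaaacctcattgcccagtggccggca
GSTU4 (chr2:12627892-12628141, minus strand): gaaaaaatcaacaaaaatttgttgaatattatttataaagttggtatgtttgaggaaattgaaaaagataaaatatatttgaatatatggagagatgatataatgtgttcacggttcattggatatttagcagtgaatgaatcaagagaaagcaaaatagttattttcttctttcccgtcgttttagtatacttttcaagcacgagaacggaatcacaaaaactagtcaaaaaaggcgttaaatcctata
The window of GSTU7 also runs over part of the annotated non-coding gene AT2G00850, which is not in the count table used here.

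TGACG was found on either strand in 5 of the 7 promoters, taken from 250 bases before to 50 after the gene start, and in 23.1% of 27443 promoters of protein-coding genes in the genome. The sites stood at positions -77 and -65 in GSTU1, -105 in GSTU3, -142 in GSTU5 and -162 in GSTU6, all on the gene's strand, while the promoters of GSTU2 and GSTU4 held none. The site of GSTU5 lies within the annotated small gene AT2G29452. GSTU7 had 3 overlapping or neighbouring sites, at -61, -52 and -49, of which the last pair forms the palindrome TGACGTCA, present in 0.627% of all promoters. Promoters with 2 or more sites were 2 of the 7, GSTU1 and GSTU7, and 4.44% of all. In both genes, 2 of the sites on one strand start 12 bases apart, the pattern TGACGNNNNNNNTGACG, which 21 of the 27443 promoters (0.077%) contain; this spacing was searched for after the sites had been seen. The auxin response element TGTCTC was in 0 of the 7 windows and in 14.2% of all promoters, and its relative TGTCGG in 0 of the 7 and 5.12%. With 500 bases before the start, TGACG was again in 5 of 7 promoters against 32% of all, with 2 or more sites in 4 of 7 against 8.06%, and TGTCTC was in 1 of 7 against 21.3%, the one being the window of GSTU2, which lies inside GSTU1. These are matches of letters in fixed windows, not measured binding sites. The copies are related, so their 7 windows are not independent of each other.

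The mock roots expressed the copies at very different levels. Per kb of exon, GSTU1 was at 20.0 ± 2.05 CPM per kb (SD, n = 3) and GSTU6 at 19.1 ± 2.91, with overlapping ranges. GSTU5 followed at 9.92 ± 7.43 CPM per kb, and its highest library overlapped the range of GSTU6. GSTU7 at 3.62 ± 0.662 and GSTU4 at 2.40 ± 1.34 CPM per kb again overlapped each other, GSTU3 was low at 0.619 ± 0.134 CPM per kb, and GSTU2 had no count in any mock library. Of all counts that fell on the array in mock, GSTU6 took 38.9 ± 8.04%, GSTU1 33.5 ± 3.41% and GSTU5 17.7 ± 9.94%, and the other 4 genes shared the rest. In IAA the order per kb was GSTU1 (46.3 ± 9.67), GSTU6 (39.9 ± 1.01), GSTU5 (21.4 ± 4.89), GSTU4 (9.0 ± 1.79), GSTU7 (6.15 ± 0.605), GSTU3 (0.894 ± 0.524) and GSTU2 (0.068 ± 0.0307), and among neighbours in this order the ranges overlapped for GSTU1 and GSTU6 alone. GSTU4 thus stood below GSTU7 on average in mock and above it in every library of IAA, on this scale and in plain CPM.

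Genes annotated on the opposite strand lie over parts of GSTU2, GSTU7 and GSTU6, and their part in the levels of these copies was not tested. Of the exonic bases of GSTU2, 669 of 951 (70.3%) lie under exons of AT2G29485; of GSTU7, 611 of 887 (68.9%) lie under AT2G08340 and the end of MTPB1; and of GSTU6, 398 of 1333 (29.9%) lie under AT2G29430. AT2G29485, AT2G08340 and AT2G29430 had 0 counts in all 6 libraries. Across the table, 385 of the 386 genes whose exons lie wholly under exons of an opposite-strand gene with at least 1000 counts were at 0 counts, and the remaining one had 1 count over all libraries. Among genes covered for 50% to under 100% of their exons, 200 of 358 (55.9%) were at 0, and among those covered for less than 50%, 151 of 3149 (4.80%). Each of these classes holds only genes without same-strand overlap whose opposite-strand gene had at least 1000 counts over all 6 libraries. The genes opposite GSTU2, GSTU6 and GSTU7 were below that limit, MTPB1 with at most 17 counts per library. These copies are therefore outside the classes. How the reads were counted, with or without regard to strand, is not given in the sources used. Counted per exonic base that is free of the other strand, a scale chosen after these values were seen, GSTU6 led in mock at 27.3 ± 4.14 CPM per kb above GSTU1 at 20.0 ± 2.05, without overlap, and GSTU7 moved to 11.6 ± 2.13 CPM per kb, with a range overlapping that of GSTU5. On that scale GSTU6 also led in IAA, at 56.8 ± 1.43 CPM per kb, and GSTU7 reached 19.8 ± 1.95, above GSTU4. The order of the copies is therefore tied to this choice, and GSTU2 has only 282 free exonic bases in which reads could be seen under it.

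**Figure D2:**
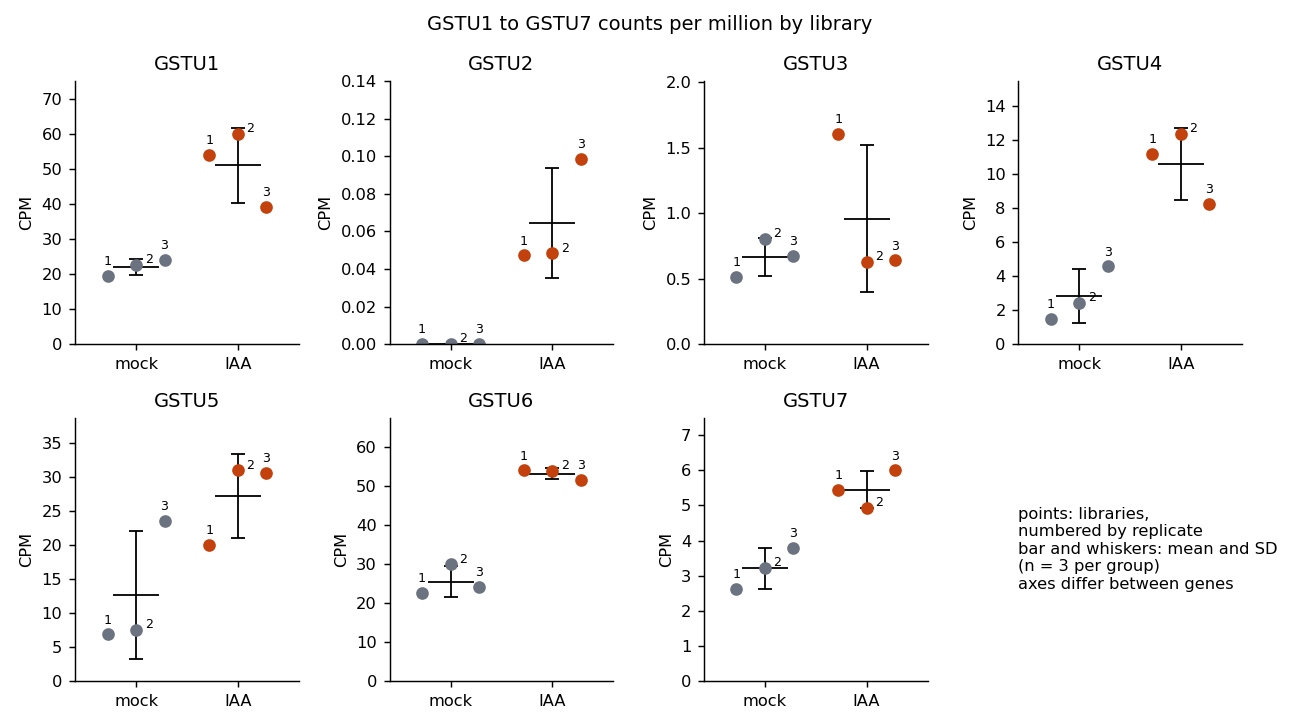
Level in CPM (vertical axis, scaled separately for each gene) of each of the 7 genes in the 3 mock and 3 IAA libraries; each point is a library numbered by replicate, and the bar and whiskers are the mean and SD (n = 3). For GSTU1, GSTU4, GSTU6 and GSTU7 all IAA points lie above all mock points, while for GSTU5 mock 3 lies above IAA 1 and for GSTU3 a single IAA library is high. All IAA points of GSTU2 also lie above its mock points, but at 1, 1 and 2 counts against 0.

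After 1 h of IAA the array as a whole gave more counts. The 7 genes together were at 53.7, 66.5 and 80.5 CPM in mock 1 to 3 and at 146, 163 and 136 CPM in IAA 1 to 3, a mean of 66.9 ± 13.4 against 148.5 ± 13.4 CPM (SD, n = 3). Summed into 1 row and fitted with all other genes, the difference was 1.15 on the log2 scale (SE 0.16), or 2.22-fold. Among the 7 genes, 3 (GSTU1, GSTU4 and GSTU6) were called higher and 0 lower in the fit over all genes by edgeR at a Benjamini-Hochberg adjusted p under 0.05, where 3.24% of the 19778 tested genes were called higher and 0.991% lower. In 4 of the 6 genes past the filter on low counts (GSTU1, GSTU4, GSTU6 and GSTU7) every IAA library was above every mock library, as in 12.3% of all tested genes. Because the set was chosen on this contrast, these shares are shown beside the counts and nothing is read from them. Of the 7 genes 6 passed the filter on low counts, and GSTU2 did not. The median log2 change over all tested genes was -0.01.

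GSTU6, the most abundant copy by counts, had the lowest within-group spread of the 6 copies past the filter when both groups were pooled, while in mock GSTU1 varied less. It was at 22.6, 29.9 and 24.0 CPM in mock and at 54.0, 53.9 and 51.6 CPM in IAA. The IAA libraries lay within a coefficient of variation of 2.52%, and the lowest of them was well above the highest mock library, mock 2. The mean went from 25.5 ± 3.87 to 53.1 ± 1.34 CPM (SD, n = 3), a log2 change of 1.06 (SE 0.12) or 2.09-fold.

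GSTU1 was close to GSTU6 in level. Its libraries were at 19.6, 22.7 and 24.0 CPM in mock and at 54.0, 60.1 and 39.3 CPM in IAA, so the groups did not overlap, although IAA 3 was lower than the other two IAA libraries. The mean went from 22.1 ± 2.26 to 51.1 ± 10.7 CPM (SD, n = 3), a log2 change of 1.21 (SE 0.17) or 2.31-fold. GSTU1 and GSTU6 had equal counts in mock 3 (499) and in IAA 1 (1142) and differed in the other 4 libraries.

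GSTU4 had the largest fitted change of the 6 copies past the low-count filter, from a low starting level. It had 32, 51 and 95 counts in mock and 236, 256 and 168 in IAA, or 1.50, 2.41 and 4.57 CPM against 11.2, 12.4 and 8.26 CPM. All IAA libraries were above all mock libraries, and mock 3 was the highest mock library and IAA 3 the lowest IAA library. The mean went from 2.83 ± 1.58 to 10.6 ± 2.11 CPM (SD, n = 3), a log2 change of 1.91 (SE 0.38) or 3.75-fold. Its share of the array's counts went from 4.03 ± 1.48% to 7.09 ± 0.898%, while the shares of GSTU1 (33.5 ± 3.41% to 34.2 ± 4.68%) and GSTU6 (38.9 ± 8.04% to 35.9 ± 2.52%) moved by less than their SD in mock.

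GSTU5 varied more between mock libraries than any other copy that passed the filter. It was at 6.85, 7.46 and 23.5 CPM in mock and at 20.0, 31.0 and 30.6 CPM in IAA. The groups overlapped, since mock 3 was above IAA 1, and the coefficient of variation in mock was 74.9%. The mean went from 12.6 ± 9.43 to 27.2 ± 6.20 CPM (SD, n = 3), a log2 change of 1.11 (SE 0.51). Without mock 3 it was 1.93, and GSTU5 was then called higher as well.

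GSTU7 was higher in IAA by a smaller amount. It had 56, 68 and 79 counts in mock and 115, 102 and 122 in IAA, or 2.63, 3.21 and 3.80 CPM against 5.43, 4.93 and 6.0 CPM. The groups did not overlap, and the means of 3.21 ± 0.587 and 5.45 ± 0.537 CPM (SD, n = 3) gave a log2 change of 0.76 (SE 0.20) or 1.70-fold. The other strand covers 68.9% of its exonic bases, as described above, and the gene was called higher by DESeq2 and not by edgeR.

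GSTU3 and GSTU2 were near the limit of what this depth can show. GSTU3 had 11, 17 and 14 counts in mock and 34, 13 and 13 in IAA, so that IAA 1 alone was high and the groups overlapped. Its log2 change was 0.53 (SE 0.46), and without IAA 1 it was -0.07. GSTU2 had 0 counts in all 3 mock libraries, which allows up to 3 counts over the group or 0.0474 CPM, and 1, 1 and 2 counts in IAA. The 4 IAA counts correspond to 0.0643 CPM with an exact 95% Poisson interval from 0.0175 to 0.165 CPM, which covers counting error only and includes the mock limit. A difference in GSTU2 was not detectable at this depth. The other strand covers 70.3% of its exonic bases, as described above, and the part of this in its low counts was not tested.

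The spread between replicates also differed among the copies. The within-group SD of log2 CPM was 0.152 for GSTU6, 0.208 for GSTU7, 0.249 for GSTU1, 0.537 for GSTU3, 0.589 for GSTU4 and 0.741 for GSTU5, against a median of 0.187 over all tested genes. GSTU6 stood at the 37.2 percentile of all tested genes and GSTU5 at the 95.8 percentile. In GSTU4 and GSTU5 the spread was larger in mock, with coefficients of variation of 55.8% and 74.9%, than in IAA, with 19.9% and 22.8%, and mock 3 was the high library for both. In GSTU1 it was the other way round, with 10.2% in mock and 20.9% in IAA.

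**Figure D3:**
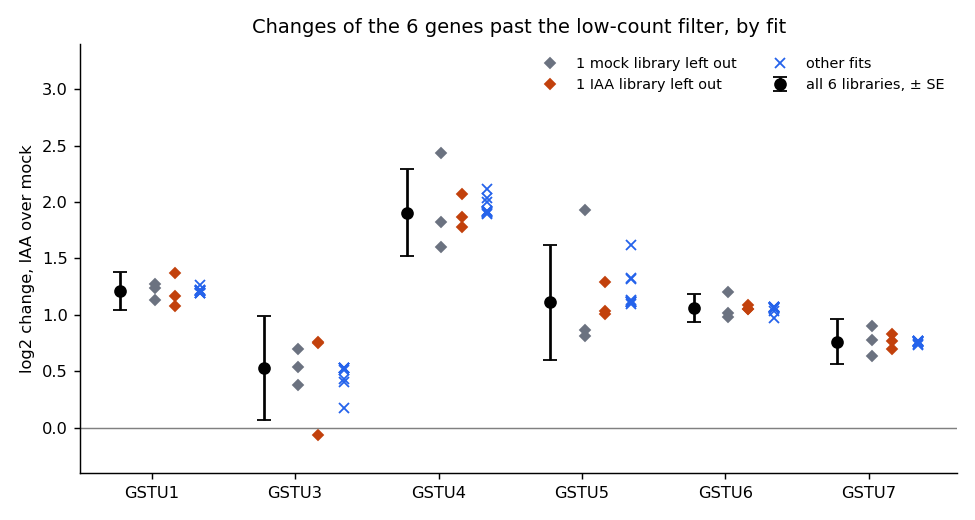
Log2 change of IAA over mock (vertical axis) for the 6 genes that passed the filter on low counts; black points with bars are the fit to all 6 libraries ± SE, diamonds the fits with 1 library left out, and crosses the other fits. The points of GSTU6 and GSTU1 stay close together, from 0.97 to 1.2 and from 1.08 to 1.37, and those of GSTU5 reach from 0.81 to 1.93.

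Over 15 other settings, the log2 change of GSTU6 stayed between 0.97 and 1.2 and the gene was called in all 15. GSTU1 stayed between 1.08 and 1.37 and was called in 14, the exception being the fit without mock 1 (1.13). GSTU4 stayed between 1.60 and 2.44 but was called in only 7. Besides the fit with replicate numbers as a term, its call was absent without mock 1 (1.60), mock 2 (1.82), IAA 1 (1.87), IAA 2 (1.78) or IAA 3 (2.07), at an adjusted p under 0.01 and with the photosynthesis level as a term (2.11). The authors' deposited table gave log2 fold changes of 1.21 for GSTU1 (SE 0.19), 1.91 for GSTU4 (SE 0.37), 1.06 for GSTU6 (SE 0.15), 1.11 for GSTU5 (SE 0.61), 0.76 for GSTU7 (SE 0.26) and 0.53 for GSTU3 (SE 0.61). It also lists GSTU2, with a mean normalized count of 0.676, whose fold change is not given here because the gene had 0 counts in mock.

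The shoot photosynthesis genes were high in mock 1, mock 3 and IAA 2 and low in mock 2, IAA 1 and IAA 3, so each kind held libraries of both groups. Within the high libraries the log2 ratio of IAA over mock was 1.46 for GSTU1, 2.03 for GSTU4, 1.03 for GSTU5, 1.21 for GSTU6 and 0.62 for GSTU7. Within the low libraries it was 1.04 for GSTU1, 2.01 for GSTU4, 1.76 for GSTU5, 0.82 for GSTU6 and 0.83 for GSTU7. For GSTU3 the ratios were 0.08 and 0.49. The split was made after the levels had been seen, and each ratio sets 1 library against 2, so these values have no replicate check.

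Of the 5 tested genes beside the array, 1 was called, where 3.24% of all tested genes were called higher and 0.991% lower. On the GSTU7 side, the sterol methyl oxidase gene SMO2-2 had a log2 change of 0.12 (SE 0.08) and the protein phosphatase gene TOPP1 one of -0.10 (SE 0.11), with edgeR adjusted p of 0.536 and 0.742. MTPB1, whose product belongs to the metal tolerance family and whose end overlaps that of GSTU7, had between 4 and 17 counts per library and a log2 change of 0.68 (SE 0.48, edgeR adjusted p = 0.543). On the GSTU1 side, AT2G29500 was at 15.7 CPM in both groups (log2 change 0.01, SE 0.23, edgeR adjusted p = 0.994). AT2G29510, the next gene, rose from 50.1 ± 2.18 to 67.7 ± 2.53 CPM (SD, n = 3), a log2 change of 0.43 (SE 0.08, edgeR adjusted p = 0.0299, higher in 3 of 3 IAA libraries). That call was absent without mock 1, mock 2, mock 3, IAA 2 or IAA 3, where the log2 change over all 6 such fits was 0.40 to 0.47 and the adjusted p 0.0392 to 0.141. The transfer RNA gene AT2G29520 and the small gene AT2G29452 between GSTU5 and GSTU4 had 0 counts in all 6 libraries.

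The 3 genes outside the array whose profile over the 6 libraries was most like that of GSTU6 were EDA21 (AT4G13235), CBL1 (AT4G17615), which encodes a calcineurin B-like calcium sensor, and AT4G24380. Likeness was the root mean square difference of centred log2 CPM over 18879 genes with a mean log2 CPM of at least 0. The differences were 0.0822, 0.0937 and 0.104, whereas the nearest array copies, GSTU1 and GSTU7, were at 0.208 and 0.249 and GSTU4 at 0.663. The 3 genes most like GSTU4 were GSTU11 (AT1G69930), a tau gene on another chromosome, at 0.290, AIL7 (AT5G65510), which encodes an AINTEGUMENTA-like transcription factor, at 0.298 and the laccase gene LAC16 (AT5G58910) at 0.328, and the nearest array copy, GSTU5, was at 0.502. In both cases the array copies were less alike than these genes. The 3 genes in each case were the closest of 18879, which nearly fixes that order in advance. No result about the copies is read from that order. The measure follows level changes between groups, on which the array was chosen, as well as the spread between libraries.

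Against the rest of the tau class the array remained a small part of the transcripts. Its share of all tau counts went from 4.10 ± 0.863% in mock to 7.49 ± 0.713% in IAA (SD, n = 3), and its share of the counts of all listed glutathione transferase genes went from 1.36 ± 0.281% to 2.62 ± 0.118%. GSTU19 alone held 53.3 ± 2.33% of tau counts in mock and 51.5 ± 0.785% in IAA. This list and those below were chosen with earlier results of these data known, so their counts and shares are given as a description. Of the other 21 tau genes 19 were tested, with 4 higher and 1 lower, against 3.24% and 0.991% of all tested genes, and a median log2 change of 0.23, against -0.01. GSTU22 (AT1G78340) rose 2.18-fold, from 30.0 ± 2.67 to 65.3 ± 14.7 CPM (edgeR adjusted p = 0.0119), and GSTU16 (AT1G59700) 2.15-fold to 12.2 ± 0.386 CPM (edgeR adjusted p = 0.0252). GSTU11 rose 6.02-fold from a low 0.429 ± 0.258 CPM (edgeR adjusted p = 0.0252) and GSTU12 (AT1G69920) 5.23-fold from 0.173 ± 0.0968 CPM (edgeR adjusted p = 0.0468). GSTU27 (AT3G43800) fell by 0.73 on the log2 scale, from 102.5 ± 11.2 to 61.6 ± 9.55 CPM (edgeR adjusted p = 0.0259). Without mock 1 none of these 5 calls was left, and without mock 2 or IAA 2 that of GSTU22 alone. Without IAA 3 the calls of GSTU16, GSTU27 and GSTU12 were absent, and without mock 3 that of GSTU12. The highest adjusted p with 1 library left out was 0.0754 for GSTU22, 0.117 for GSTU11, 0.0989 for GSTU16, 0.18 for GSTU12 and 0.108 for GSTU27. Over the 15 other settings GSTU22 was called in 13, GSTU11 in 10, GSTU27 in 9, GSTU16 in 8 and GSTU12 in 5.

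None of the 10 tested phi-class genes was called in either direction, where 3.24% of all tested genes were called higher and 0.991% lower, and their median log2 change was 0.31. No share of all genes is given at an unadjusted p under 0.05, so such counts here and below are not read as a result. By unadjusted p under 0.05, 3 of the phi genes were higher and 1 lower. DESeq2 called 2 of them higher, where it called 1087 genes higher and 552 lower over the whole table. The most abundant, GSTF10 (AT2G30870), had mock and IAA means of 1070 ± 125.5 and 1065 ± 75.7 CPM, and GSTF8 (AT2G47730) of 732 ± 84.5 and 1201 ± 247 CPM (log2 change 0.71, SE 0.17, edgeR adjusted p = 0.0637). Among 12 genes of the zeta, theta, lambda, dehydroascorbate reductase and related classes none was called by edgeR or DESeq2, with a median of -0.01 and by unadjusted p under 0.05 0 were higher and 1 was lower. GSTZ1 (AT2G02390) and DHAR1 (AT1G19570), the most abundant of them, had log2 changes of 0.24 (SE 0.13) and -0.34 (SE 0.13), with edgeR adjusted p of 0.394 and 0.215. Of 12 tested genes for the synthesis, reduction and breakdown of glutathione 1 was called, GGT1 (AT4G39640), a gamma-glutamyl transpeptidase gene, which rose from 18.2 ± 2.85 to 36.7 ± 8.15 CPM (2.02-fold, edgeR adjusted p = 0.0287), and the list median was 0.04. By unadjusted p under 0.05, 3 genes of this list were higher and 0 lower. The GGT1 call was absent without mock 1, mock 2, IAA 2 or IAA 3, where its adjusted p reached 0.147 and its log2 change stayed between 0.92 and 1.19.

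Among the 4 listed ABCC transporter genes, ABCC2 (AT2G34660) rose from 124 ± 19.4 to 316 ± 56.7 CPM (2.54-fold, edgeR adjusted p = 0.0053). It was higher in 3 of 3 IAA libraries and was called in all 15 other settings. The other 3 were not called, where 3.24% of all tested genes were called higher and 0.991% lower. The median log2 change of the list was 0.41, against -0.01 over all tested genes. The xenobiotic response list was also chosen with earlier results of these data known, so its counts are a description. Of 10 genes known for their response to xenobiotics 5 were called higher and 0 lower by edgeR, against 3.24% and 0.991% of all tested genes. The median log2 change was 1.24, and the genes not called ran from -1.05 to 1.62. Those called were the cytochrome P450 gene CYP81D8 (AT4G37370), the glucosyltransferase genes UGT73B5 (AT2G15480) and UGT73B4 (AT2G15490), and the oxophytodienoate reductase genes OPR1 (AT1G76680) and OPR2 (AT1G76690). CYP81D8 rose 4.15-fold, from 1.83 ± 0.415 to 7.63 ± 1.85 CPM (edgeR adjusted p = 0.00499), and was called in all 15 other settings. OPR1 rose 2.55-fold to 355 ± 95.1 CPM (edgeR adjusted p = 0.0273). The changes of UGT73B4 (2.83-fold), UGT73B5 (2.31-fold) and OPR2 (1.67-fold) had edgeR adjusted p of 0.0345, 0.021 and 0.0387. Exonic windows of 100 bases found elsewhere in the genome were 0.782% to 2.78% of those of OPR1, OPR2, UGT73B4 and UGT73B5, so a small part of their reads cannot be assigned with certainty. Of these 5 calls 1 was left without mock 1, mock 2 or IAA 2, 2 without IAA 1 and 3 without mock 3.

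The last list held 10 genes for TGA factors, whose TGACG sites were counted in the promoters above, and for their partners. None of the 10 was called in either direction, with a median log2 change of 0.10. By unadjusted p under 0.05, 3 were higher and 1 lower, again without a share of all genes beside them, and DESeq2 called 1 higher. TGA1 (AT5G65210), the most abundant, had mock and IAA means of 295 ± 52.3 and 221 ± 25.8 CPM (log2 change -0.42, SE 0.15, edgeR adjusted p = 0.212). The NAC factor gene ANAC102 (AT5G63790) had a log2 change of 0.90 (SE 0.29, edgeR adjusted p = 0.169). Over all 7 lists, 83 genes were listed, 77 were tested, 11 were higher and 1 was lower, against 3.24% and 0.991% of all tested genes. In each of the 12, as a call nearly requires, the 3 IAA libraries lay on one side of the 3 mock libraries.

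**Figure D4:**
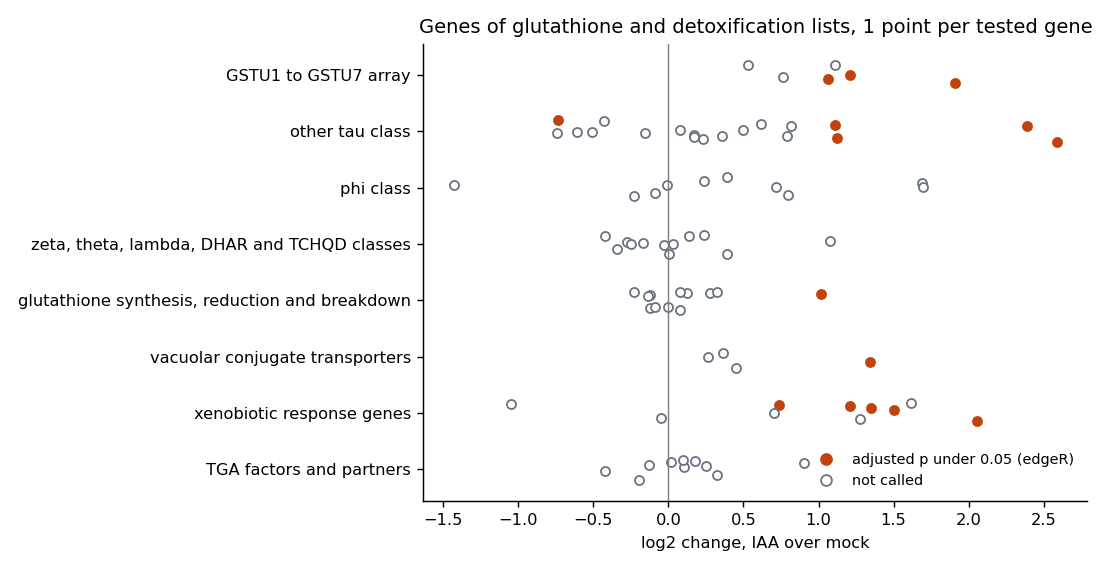
Log2 change of IAA over mock (horizontal axis) for each tested gene of the array and of the 7 pathway lists, one row per list and one point per gene, jittered vertically; filled points have an edgeR adjusted p under 0.05. All 6 array points lie to the right of 0, and 5 of the 10 xenobiotic response genes are filled, while the rows of the phi class, the zeta and related classes and the TGA factors hold open points alone.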

How the data were processed

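The authors deposited raw counts per gene, 1 column per library, with 2 technical runs per sample already combined. The build TAIR10 and the tools STAR 2.5.2b, FastQC, DESeq2 1.26.0 and SAMtools are named, with no roles, per the submitters' processing notes. The counter, its strand option and the annotation are not given in the sources used. A second table deposited by the authors holds, per the file headers, a mean normalized signal (size-factor-scaled counts), log2 fold changes with standard errors on the log2 scale, a score (the Wald statistic), a p-value and an adjusted p-value. Of it, log2 fold changes, their errors and the mean normalized count of GSTU2 are quoted.

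All genes were tested with edgeR 4.0.16 in R 4.3.3 (glmQLFit robust, glmQLFTest, TMM, filterByExpr, group as the only term) at a Benjamini-Hochberg adjusted p under 0.05, after the procedure had been tested on simulated data. SE is the absolute log2 change divided by the square root of F. CPM is the count per 1e+06 of the TMM-scaled library total. Alternatives were RLE factors, library totals, no low-count filter, DESeq2 1.42.0, limma-voom 3.58.1, a stricter filter (1 CPM and 10 counts in 3 libraries), a replicate block, an adjusted p under 0.01 and each library left out. The photosynthesis term and the levels per free exonic base were added after the data had been seen. Positions, symbols and sequence come from RefSeq's TAIR10.1. Sequences were read with Python 3.11.15, and coding sequences were aligned with Biopython 1.88.

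The array genes and the gene lists were chosen with earlier results of these data known. Named genes are the 7 copies, their neighbours, the called genes of each list with the 4 smallest p (without calls, its 2 most abundant genes), and the 3 genes most like GSTU6 and GSTU4; GSTU12 and OPR2 were added beyond this rule after their values had been seen.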

Additional observations from a re-analysis of the deposited data

How the results depend on the processing

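The numbers of called genes depended on the tool, the threshold and single libraries. DESeq2 called 1087 genes higher and 552 lower over the whole table, and 19 higher in the pathway lists, against 641, 196 and 11 by edgeR. An adjusted p under 0.01 left 272 higher and 39 lower, and 2 higher and 0 lower in the lists. With 1 library left out, the counts ranged from 260 to 839 higher and from 47 to 433 lower over all genes, from 1 to 4 higher in the array, and from 2 to 11 higher and 0 to 2 lower in the lists. The lowest of the higher counts came without mock 1, in the table, the array and the lists. The highest count of the table came without IAA 1 and that of the array without mock 3. Correlations of deviations between same-numbered libraries were 0.09, -0.45 and 0.20, and between differently numbered ones they ran from -0.37 to 0.33. With 3 libraries per group, these values cannot decide whether same-numbered libraries belong together. With a replicate block there were 462 higher and 149 lower, 2 higher in the array (GSTU1 and GSTU6), and 4 higher and 0 lower in the lists, 1 each among the tau, glutathione, transporter and xenobiotic response genes. RLE factors, library totals, both other filters and limma-voom gave the same 3 array calls as the main setting. With the photosynthesis level as a term, 2 array genes (GSTU1 and GSTU6) were called. Of the 6 array genes tested, the log2 changes kept their direction in every setting with a value, except that of GSTU3 without IAA 1 (-0.07); with the filter of at least 1 CPM and 10 counts GSTU3 gave no value. The cause of these differences was not tested. Depth limits GSTU2 and GSTU3, whose counts were at most 34 per library, and the part of other-strand overlap in the levels of GSTU2, GSTU6 and GSTU7 was not tested.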
